A study of Punica granatum with 14 samples.

Results

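The transcriptomes of 4 pomegranate plants were compared, 2 grown with 15 g/L mannitol and 2 grown with 2.5 g/L mannitol, out of 14 sequenced plants. The 4 libraries were chosen by the mannitol dose in their sample labels. The plants were wild-type seedlings of the cultivar Hongmanao, raised in tissue culture from stem tips on a medium with the auxin IBA and sucrose, which all groups shared, and leaves were sampled at 90 days. The other plants received B9 (daminozide) or paclobutrazol at 6 or 8 mg/L, or distilled water in place of a growth retardant (CK), with 2 plants per condition. RNA came from the leaves of single plants, and the sources used here do not say whether plants descended from the same stem tip. P-values therefore measure only the spread between these plants. The question addressed here was which transcripts differed between the doses of mannitol, and where the untreated plants lay between or beyond them.

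Mannitol is a sugar alcohol that many plants make as a storage carbohydrate and as a compatible solute under drought or salt. In tissue culture it is commonly added to the medium to lower the water potential, because many plant tissues take it up or metabolise it slowly. The medium then holds water more tightly, growth slows, and mannitol is for this reason used in slow-growth storage of cultures. Daminozide and paclobutrazol retard growth by another route, as inhibitors of gibberellin synthesis.

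The mannitol libraries held between 22882715 and 24132106 counts, and all 14 libraries between 15790717 and 28385703. Of the 27893 genes, 19408 were tested. The spread was estimated from 12 libraries, those of CK, both B9 doses, 8 mg/L paclobutrazol and both mannitol doses. The 6 mg/L paclobutrazol plants were left out, since 6962 genes differed by more than 1 log2 unit between them, against 2283 between the 2.5 g/L mannitol plants and 1616 between the 15 g/L mannitol plants. Values are given as CPM, read counts brought to a common library size with TMM scaling, which are not corrected for gene length. The genes carry locus symbols without product names in the tables used here, so no function is given for them, and the leaf label was not checked against marker genes.

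The mannitol doses were separated along the third principal component of the 12 libraries, which carried 9.9% of the variance. The 15 g/L plants lay at -32.7 and -35.2 on this component and the 2.5 g/L plants at 39.2 and 62.8. The CK plants lay between them on this component, at 0.9 and 0.3. It was not an axis of mannitol dose alone, since replicate 1 of 8 mg/L B9 lay at -47.6. Along the first component (34.7%) the doses overlapped, with the 15 g/L plants at -36.5 and -73.5 and the 2.5 g/L plants at -12.8 and -55.9. CK lay there at -70.1 and -67.8, within the range of the 15 g/L plants. On the second component (20.1%) CK lay at 25.2 and 34.9, outside the mannitol plants at -34.9 to 2.1. On the fourth (8.15%) CK lay at 50.1 and 40, outside the mannitol plants at -39.6 to -11.2.

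Between 15 and 2.5 g/L mannitol, 178 genes were differentially expressed (DEGs), 0.917% of the genes tested. Genes counted as DEGs when the log2 fold change exceeded 1 in size and the Benjamini-Hochberg adjusted p of the quasi-likelihood test in edgeR was below 0.05. At 15 g/L, 122 DEGs were upregulated (0.629% of tested genes) and 56 were downregulated (0.289%). Scaled by library size alone, the split was 86 upregulated and 88 downregulated, and the median log2 fold change of all tested genes moved by -0.12. The TMM factors were 0.956 and 0.914 in the 15 g/L libraries and 1.03 and 0.994 in the 2.5 g/L libraries. All 178 DEGs are annotated as protein-coding, and none of the 852 lncRNAs tested was a DEG by edgeR's test, while 54 of them passed the fold threshold at an unadjusted p under 0.05, as did 7.31% of all tested genes, and DESeq2 on the 12 libraries called 24.

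The count of DEGs rested on the libraries that estimated the spread and on single plants. With edgeR, no gene passed when the fit held only the 4 mannitol libraries (1368 genes at an unadjusted p under 0.05 with the fold threshold) or all 14 libraries (1227 genes). DESeq2 called 841 genes on the 12 libraries and 852 on the 4 mannitol libraries, among them 174 and 175 of the 178 DEGs. Without replicate 2 of 15 g/L mannitol edgeR called 0 genes (1023 unadjusted), and without replicate 1 or 2 of 2.5 g/L mannitol 44 and 2 genes. The count was 116 and 115 without CK replicate 1 or 2, and 94 without replicate 1 of 8 mg/L B9.

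**Figure D1:**
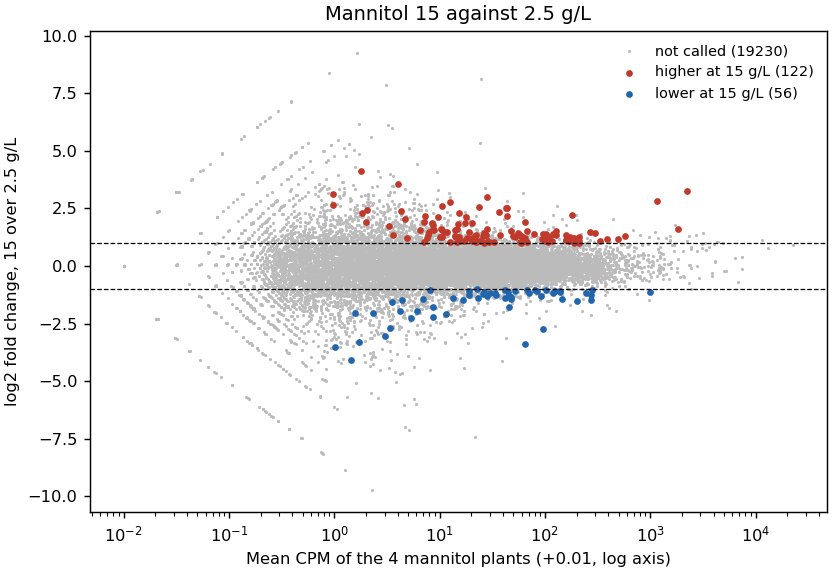
The log2 fold change of 15 over 2.5 g/L mannitol (y axis) against the mean CPM of the 4 mannitol plants (x axis, log scale) for 19408 genes, with the 122 upregulated DEGs in red, the 56 downregulated DEGs in blue and dashed lines at the fold threshold of 1. Of the 820 genes with an absolute log2 fold change over 2, 35 were DEGs, and most DEGs lie just outside the dashed lines at moderate levels.

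Most of the changes were moderate. The absolute log2 fold change had a median of 1.34 in the upregulated and also in the downregulated DEGs, with a median standard error of 0.23 and 0.22. It was over 2 in 23 upregulated and 12 downregulated DEGs and reached 4.11 and 4.08. The adjusted p of the DEGs lay between 0.0186 and 0.0495. By the adjusted p alone 1.97% of tested genes passed. The 204 of them that were not DEGs passed with a log2 fold change of at most 1 in size, and 140 were higher and 64 lower at 15 g/L. In CPM, the plants of the doses did not overlap in any DEG, as in 53.4% of all tested genes. The median DEG higher at 15 g/L had a mean of 38.7 CPM at 15 g/L and 14.2 CPM at 2.5 g/L. For the DEGs lower at 15 g/L these medians were 19.6 CPM at 15 g/L and 47.7 CPM at 2.5 g/L.

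The upregulated gene with the most reads was LOC116195644. It had 3491 and 4660 CPM in the 15 g/L plants, against 499.3 and 342.5 CPM in the 2.5 g/L plants. Both 15 g/L plants thus stood well above both 2.5 g/L plants, with a fold change of 9.68 (log2 fold change 3.28, SE 0.38, adjusted p = 0.0217). The CK plants had 538.6 and 763 CPM, close above the 2.5 g/L plants. Compared to CK, LOC116195644 was upregulated at 15 g/L (log2 fold change 2.65, adjusted p = 0.0188), while the log2 difference at 2.5 g/L was -0.63 (adjusted p = 0.316).

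LOC116212803 and LOC116216063 came next by reads, and were picked after their values were seen. LOC116212803 had 2516 and 2949 CPM at 15 g/L, against 1014 and 799.4 CPM at 2.5 g/L. LOC116216063 had 1440 and 2640 CPM at 15 g/L, against 287.1 and 288.8 CPM at 2.5 g/L. In both genes the plants of the doses did not overlap. The CK plants lay between the doses in LOC116212803, at 1503 and 1428 CPM, while in LOC116216063, at 791.2 and 1500 CPM, 1 CK plant was above the lower 15 g/L plant.

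The downregulated gene with the smallest adjusted p was LOC116189972. It had 11.7 and 11.4 CPM in the 15 g/L plants, against 80.3 and 157.6 CPM in the 2.5 g/L plants, 10.3-fold lower at 15 g/L (log2 fold change -3.37, SE 0.30, adjusted p = 0.0186). The CK plants had 10.5 and 9.21 CPM, so that 15 g/L lay next to CK and 2.5 g/L stood apart from both. Against CK, LOC116189972 was upregulated at 2.5 g/L (log2 fold change 3.59, adjusted p = 0.00319), and the log2 difference at 15 g/L was 0.23 (adjusted p = 0.702).

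The position of CK was expressed on a scale where the 2.5 g/L mean is 0 and the 15 g/L mean is 1, in log2 CPM. CK lay between the doses in 88 of the 122 upregulated DEGs (72.1%) and in 41 of the 56 downregulated DEGs (73.2%), against 34.2% of all tested genes. The median absolute log2 fold change was 0.32 over all tested genes and 1.34 in the DEGs, and a wider gap leaves more room for CK within it. Other genes passed the fold threshold at an unadjusted p under 0.05 but were not DEGs. Among these, CK lay between the doses in 55.1% of 708 higher and 61.5% of 532 lower genes. Their gap was wider than in the DEGs, with a median of 1.66 and 1.63. Their median standard error was larger, 0.55 and 0.56 against 0.23 and 0.22. What sets these shares apart was not tested. In 52 upregulated and 24 downregulated DEGs, both CK plants lay between all plants of both doses. This was the case in 5.95% of all tested genes, and in 15.7% of the 708 and 12.6% of the 532 uncalled genes. The test favours genes with little spread between plants, CK included, so the share among the DEGs reads high by construction.

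CK was nearer to 15 than to 2.5 g/L in 87 of the 122 upregulated DEGs (71.3%), with a median position of 0.715. This share was 51.3% over all tested genes with a positive dose difference, and 79.1% over the 708 uncalled genes with the fold threshold. Among the downregulated DEGs, CK was nearer to 15 g/L in 30 of 56 (53.6%), with a median position of 0.536. This was 53.9% over all tested genes with a negative difference and 41.4% over the 532 uncalled ones. CK lay beyond 15 g/L in 30 upregulated and 7 downregulated DEGs, and beyond 2.5 g/L in 4 upregulated and 8 downregulated DEGs. The share of DEGs with CK beyond 15 g/L, 20.8% of the 178, was 31 and 10.4% of the DEGs called without CK replicate 1 or 2, and 5.37% without replicate 1 of 15 g/L mannitol, with 87.2% then between the doses. It was 100% without replicate 2 of 2.5 g/L mannitol, where 2 DEGs were left.

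**Figure D2:**
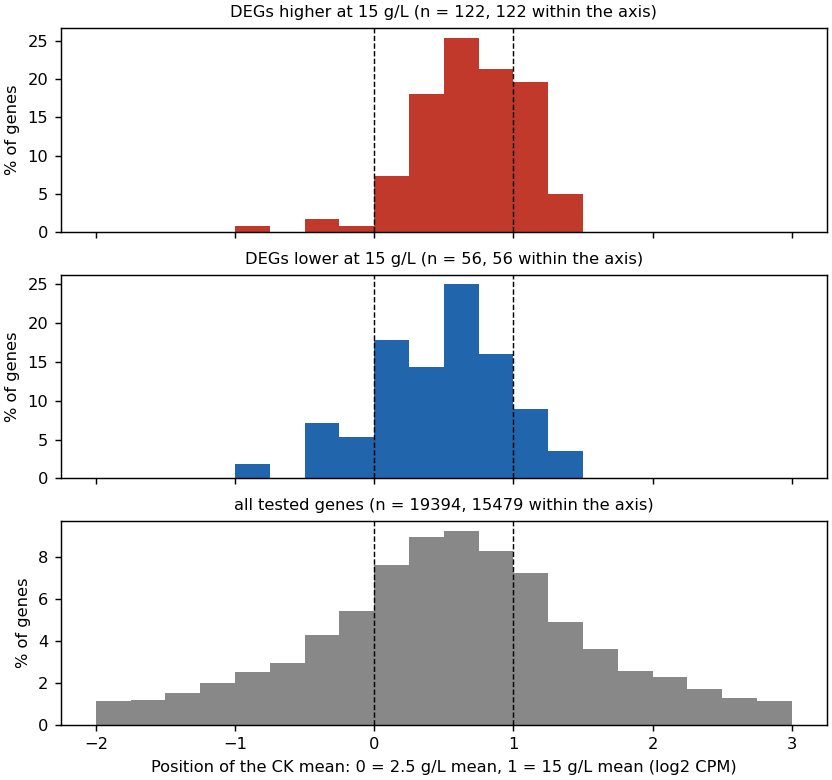
Percent of genes (y axis) by the position of the CK mean (x axis), where 0 is the 2.5 g/L mean and 1 the 15 g/L mean in log2 CPM (dashed lines), for the 122 upregulated DEGs, the 56 downregulated DEGs and all tested genes with a position. The upregulated DEGs centre at 0.715 and the downregulated DEGs at 0.536, both between the dashed lines, while many tested genes lie outside them.

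The calls against CK divided the DEGs further. In 51 of the 122 upregulated DEGs only 2.5 g/L differed from CK, in 8 only 15 g/L and in 63 neither. Here and below, differing from CK means passing both thresholds of a DEG in edgeR's test. Of the 56 downregulated DEGs, 15 differed from CK only at 2.5 g/L, 11 only at 15 g/L, 1 at both and 29 at neither. Over all tested genes, 1.19% were DEGs of 15 g/L against CK (231 genes) and 3.04% were DEGs of 2.5 g/L against CK (590 genes). At 15 g/L 0.721% were upregulated and 0.469% downregulated against CK, and at 2.5 g/L 1.57% and 1.47%. These comparisons share their CK plants with each other and their mannitol plants with the dose comparison. Both counts hung on single plants: 15 g/L against CK gave 0 DEGs without CK replicate 1 (1040 unadjusted) or without its own replicate 2 (1103 unadjusted), 35 without CK replicate 2, 36 without its own replicate 1, and 141 and 146 without replicate 1 or 2 of 8 mg/L B9. For 2.5 g/L against CK the count was 121 and 11 without CK replicate 1 or 2, and 221 and 150 without its own replicate 1 or 2. DESeq2 on the 12 libraries called 731 and 1241 genes at 15 and 2.5 g/L against CK.

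The 51 upregulated DEGs that differed from CK only at 2.5 g/L were all lower than CK at that dose. Their median log2 fold change against CK was -0.05 at 15 g/L and -1.45 at 2.5 g/L. This order follows largely from choosing genes that were higher at 15 g/L and differed from CK only at 2.5 g/L. LOC116190756 had 19.8 and 21.6 CPM at 15 g/L, against 9.85 and 9.32 CPM at 2.5 g/L. Its CK plants had 20.3 and 19 CPM, at the level of 15 g/L. LOC116212499 showed the same order, with 148.7 and 171.6 CPM at 15 g/L, against 78.1 and 71.2 CPM at 2.5 g/L. The CK plants had 160.5 and 171 CPM of LOC116212499, within the range of the 15 g/L plants.

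The same pattern was seen in LOC116188169, with a larger difference between the doses. Its plants had 21.4 and 35.9 CPM at 15 g/L, against 6.07 and 7.17 CPM at 2.5 g/L, a fold change of 4.33 (log2 fold change 2.11, SE 0.25, adjusted p = 0.0217). The CK plants of LOC116188169 had 24.6 and 32.2 CPM, inside the range of the 15 g/L plants.

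The largest fold changes of this kind were found at low levels. LOC116205313 had 4.64 and 2.1 CPM at 15 g/L (107 and 45 counts), against 0.291 and 0.088 CPM at 2.5 g/L (7 and 2 counts). LOC116211174 had 8.76 and 6.08 CPM at 15 g/L (202 and 130 counts), against 0.873 and 0.352 CPM at 2.5 g/L (21 and 8 counts). The CK plants were high in both genes, with 3.87 and 5.58 CPM of LOC116205313 and 21.6 and 9.88 CPM of LOC116211174. The log2 fold change between the doses was 4.11 (SE 0.81, adjusted p = 0.0418) for LOC116205313 and 3.58 (SE 0.66, adjusted p = 0.0367) for LOC116211174. LOC116205313 was called in 10 and LOC116211174 in 15 of 24 other settings, with an adjusted p of up to 0.182 in both. Without replicate 1 of 2.5 g/L mannitol their log2 fold changes were 5.18 and 4.38, and for LOC116205313 the value was 3.51 without replicate 2 of 2.5 g/L and 3.42 without replicate 1 of 15 g/L.

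The 15 downregulated DEGs that differed from CK only at 2.5 g/L were all higher than CK at that dose. Their median log2 fold change was -0.05 at 15 g/L and 1.29 at 2.5 g/L, which again follows largely from how they were chosen. Besides LOC116189972, the genes named by rule were LOC116195420 and LOC116188530. LOC116195420 had 95.2 and 112.5 CPM at 15 g/L, against 283.8 and 313.7 CPM at 2.5 g/L. Its CK plants had 155.5 and 126.5 CPM, above both 15 g/L plants and well below the 2.5 g/L plants. LOC116188530 had 51.8 and 54.8 CPM at 15 g/L, against 95.2 and 132.4 CPM at 2.5 g/L, and its CK plants, at 50.6 and 43.7 CPM, lay just under the 15 g/L plants.

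In 8 upregulated and 11 downregulated DEGs only the 15 g/L plants differed from CK. The median log2 fold change of 15 g/L against CK was 1.71 in these 8 genes and -1.84 in these 11 genes. At 2.5 g/L it was 0.03 and -0.13, and a larger value at 15 g/L is built into the choice of these genes. LOC116212006 had 135.5 and 172.2 CPM at 15 g/L, against 63.6 and 65 CPM at 2.5 g/L. The CK plants, with 72.1 and 70.5 CPM, lay close to the 2.5 g/L plants of LOC116212006. LOC116206393, lower at the high dose, had 29.8 and 20.8 CPM at 15 g/L, against 162.1 and 169.4 CPM at 2.5 g/L (log2 fold change -2.71, SE 0.30, adjusted p = 0.0201). Its CK plants were 145.7 and 76.3 CPM, apart from each other and both above the 15 g/L plants.

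The group means ran in one direction from CK over 2.5 to 15 g/L in 12 DEGs, 4 rising and 8 falling, which was 6.74% of the DEGs. By direction, the share was 3.28% of the 122 upregulated and 14.3% of the 56 downregulated DEGs. Among uncalled genes with the fold threshold it was 6.64% of the 708 higher and 23.3% of the 532 lower. Over both directions the share was 30.7% of all tested genes, and a wide gap between the doses lowers it by itself. It was 10.7% of the DEGs that DESeq2 called on the 12 libraries, and with edgeR 11.3% of the DEGs called without CK replicate 2, 11.4% without replicate 1 and 0% without replicate 2 of 2.5 g/L mannitol (2 DEGs left), and 4.26% without replicate 1 of 8 mg/L B9. The 4 rising genes, all upregulated at 15 g/L against CK, were LOC116187171, LOC116191976, LOC116194823 and LOC116211347, the last 2 named after their values were seen. LOC116187171 had 64.5 and 77.2 CPM at 15 g/L, against 18.5 and 13.1 CPM at 2.5 g/L. Its CK plants had 10.6 and 7.31 CPM, below every mannitol plant. LOC116191976 had 476.1 and 612.7 CPM at 15 g/L, against 272.7 and 207.1 CPM at 2.5 g/L, and its CK plants, at 228 and 187.2 CPM, overlapped the 2.5 g/L plants.

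Of the 8 falling genes, LOC116206768 was the DEG that differed from CK at both doses. It had 2.6 and 2.34 CPM at 15 g/L, against 10.9 and 8.4 CPM at 2.5 g/L. The CK plants had 31.4 and 23.1 CPM, so that the 3 groups were fully separated. Against CK, the log2 fold change of LOC116206768 was -1.5 at 2.5 g/L (adjusted p = 0.0209) and -3.46 at 15 g/L (adjusted p = 0.00598). The fall was not particular to mannitol, with log2 fold changes of -4.05 and -3.6 at 6 and 8 mg/L B9 and -2.3 at 8 mg/L paclobutrazol. The 6 mg/L paclobutrazol plants, outside the fit, disagreed, with 1308 and 250 counts against 843 and 585 in CK.

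LOC116204438 fell in the same order at lower levels. It had 1.78 and 1.68 CPM at 15 g/L, against 5.57 and 7.92 CPM at 2.5 g/L, and the CK plants had 12.8 and 11.5 CPM. The 3 groups did not overlap in LOC116204438 either, but only the difference of 15 g/L from CK passed the test (log2 fold change -2.81, adjusted p = 0.00598). At 2.5 g/L the log2 difference was -0.85 (adjusted p = 0.0727). LOC116204438 was also lower than CK at 6 and 8 mg/L B9 (log2 fold changes -1.88 and -1.59) and at 8 mg/L paclobutrazol (-1.28).

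LOC116203536 was near the limit of detection at the high dose. It had 0.0868 and 0.234 CPM at 15 g/L (2 and 5 counts), against 2.7 and 1.01 CPM at 2.5 g/L (65 and 23 counts). CK was at 3.69 and 2.33 CPM, which overlapped the 2.5 g/L plants of LOC116203536. LOC116202061 had 0.217 and 0.0935 CPM at 15 g/L (5 and 2 counts), against 4.49 and 0.968 CPM at 2.5 g/L (108 and 22 counts). Its CK plants, at 0.298 and 0.554 CPM, lay between the doses. LOC116203536 and LOC116202061 were each called in 5 of 23 other settings, and their adjusted p ranged up to 0.19 and 0.234. The log2 fold change of LOC116202061, -4.08 with all plants, was -2.59 without replicate 1 of 2.5 g/L mannitol and -4.79 without replicate 2 of that dose or replicate 1 of 15 g/L. For LOC116203536 it was -3.51 with all plants, -2.63 without replicate 1 of 2.5 g/L and -4.34 without replicate 2 of 15 g/L.

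In 63 upregulated and 29 downregulated DEGs, neither dose was a DEG against CK. At each dose they missed the fold threshold, the threshold of the adjusted p, or both. In these upregulated genes the median log2 fold change against CK was 0.67 at 15 g/L and -0.74 at 2.5 g/L, and in the downregulated genes it was -0.82 at 15 g/L and 0.73 at 2.5 g/L. The median positions of CK were 0.519 and 0.503. A position near the middle follows largely from choosing genes that are DEGs between the doses and at neither dose against CK. LOC116207433, the upregulated gene with the smallest adjusted p, had 36.8 and 39.4 CPM at 15 g/L, against 15.8 and 12.5 CPM at 2.5 g/L (log2 fold change 1.43, SE 0.14, adjusted p = 0.0186). Its CK plants had 22.8 and 24.4 CPM, separate from both doses. By edgeR's test against CK, its adjusted p was 0.0378 at 15 g/L (log2 fold change 0.69) and 0.0228 at 2.5 g/L (-0.74). It thus missed only the fold threshold.

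LOC116198984, LOC116202262 and LOC116211110 had the same shape. In LOC116202262 the 15 g/L plants had 156.9 and 190.5 CPM, against 66.2 and 66.5 CPM in the 2.5 g/L plants, and the CK plants had 104.7 and 120 CPM. In LOC116198984 the 15 g/L plants had 69.7 and 90.6 CPM, against 31.9 and 27.9 CPM in the 2.5 g/L plants, and the CK plants had 43 and 57.5 CPM. LOC116211110 had 64.8 and 77.8 CPM at 15 g/L, against 29.5 and 28.2 CPM at 2.5 g/L, and 47.1 and 59.8 CPM in CK. In each of these genes all 3 groups were separate. By edgeR's test of 2.5 g/L against CK, the adjusted p was 0.0384 in LOC116198984, 0.0318 in LOC116202262 and 0.0196 in LOC116211110. At that dose these genes missed only the fold threshold.

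Among the downregulated genes in which neither dose was a DEG against CK were LOC116204506, LOC116197886, LOC116213069, LOC116197818 and LOC116202665, with log2 fold changes between -1.37 and -1.03. By edgeR's test against CK, the adjusted p was under 0.05 at 15 g/L in LOC116213069 and at 2.5 g/L in the other genes. LOC116204506 had 14.1 and 11.5 CPM at 15 g/L, against 36.2 and 30 CPM at 2.5 g/L, with CK at 19.4 and 20.1 CPM. LOC116197886 had 54.1 and 52.1 CPM at 15 g/L, against 106.9 and 155.5 CPM at 2.5 g/L, with CK at 71.3 and 70.2 CPM. LOC116213069 had 21.8 and 19.9 CPM at 15 g/L, against 41.9 and 51.6 CPM at 2.5 g/L. CK overlapped the 2.5 g/L plants in LOC116213069, at 44.9 and 37 CPM, and was separate from both doses in LOC116204506 and LOC116197886.

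LOC116197818 had 29.6 and 24 CPM at 15 g/L, against 59.3 and 78.5 CPM at 2.5 g/L, with CK at 46.5 and 33.8 CPM. LOC116202665 had 30 and 24.5 CPM at 15 g/L, against 50.4 and 60.8 CPM at 2.5 g/L, with CK at 36.4 and 33.1 CPM. In both genes CK was separate from both doses.

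**Figure D3:**
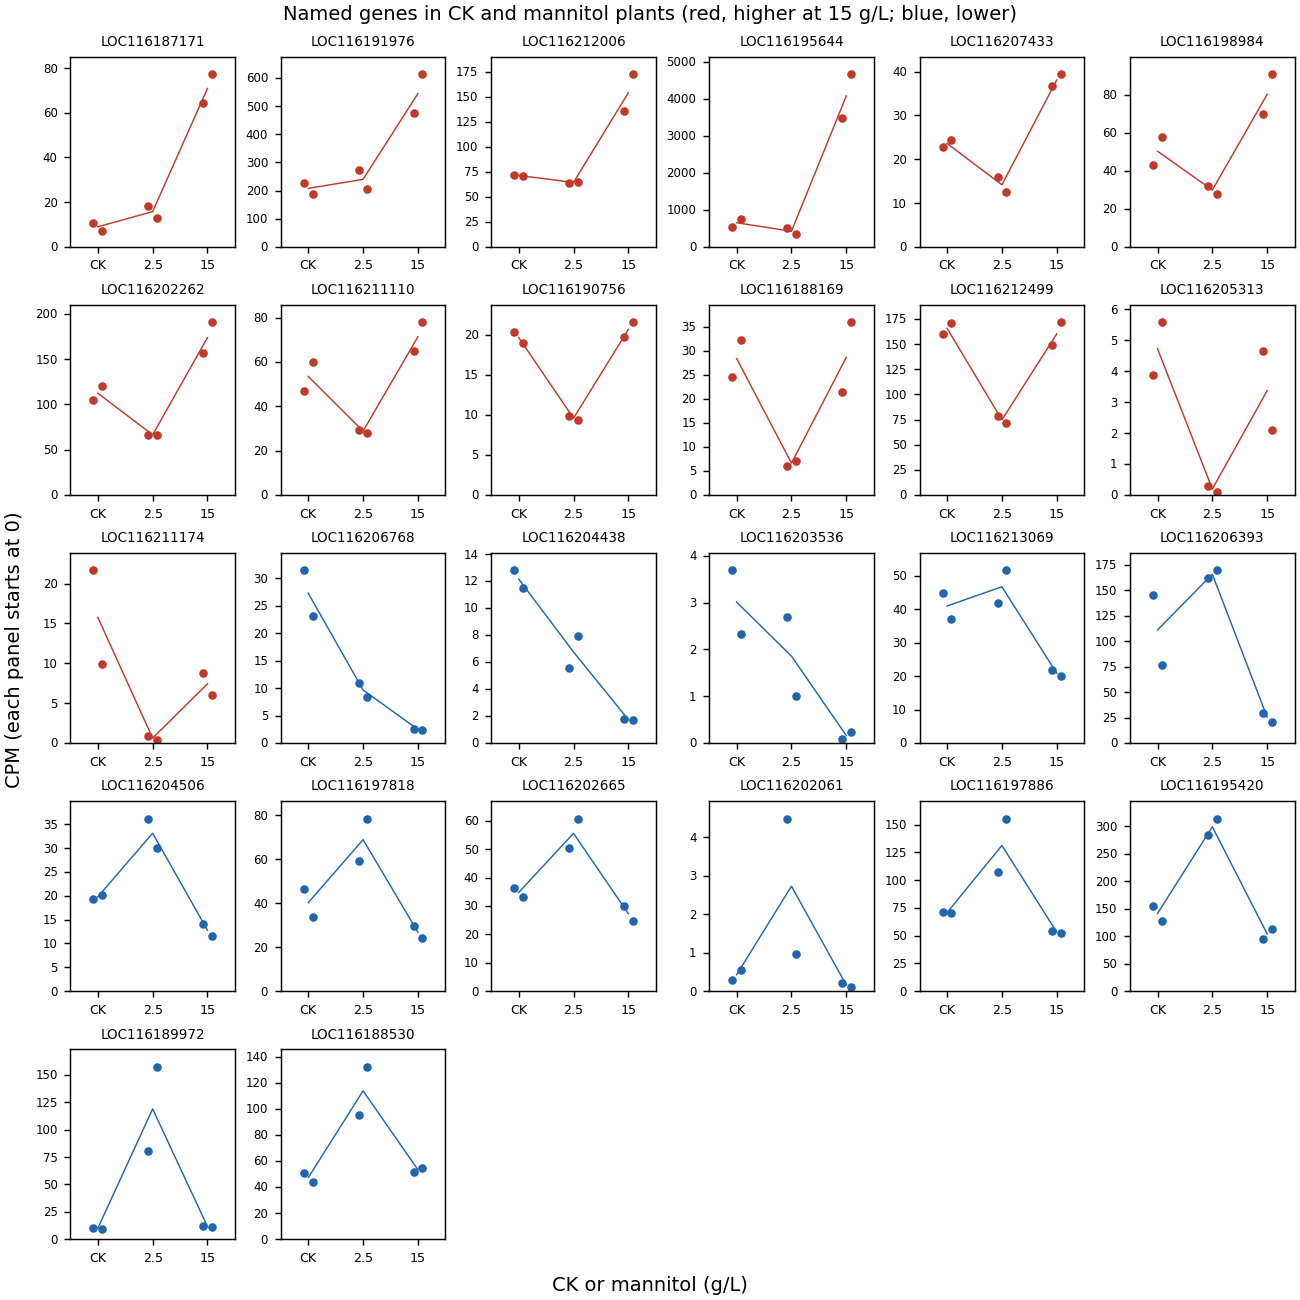
CPM (y axis, each panel from 0) of the 26 genes named by rule in the 2 plants each of CK, 2.5 and 15 g/L mannitol (x axis), with points for plants and lines through group means, upregulated genes in red and downregulated genes in blue. Within each colour the panels run from the lowest to the highest position of CK, from genes such as LOC116187171 with CK beyond 2.5 g/L to genes such as LOC116212499 with CK at 15 g/L.

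The higher and lower doses of B9, 8 and 6 mg/L, share no plant with the mannitol comparison. Of the 122 DEGs upregulated at the high mannitol dose, 107 were also higher at 8 than at 6 mg/L B9 (87.7%), against 50.9% of all tested genes, with a median log2 difference of 0.45 against 0.01. The share was 62.7% over all tested genes with a positive mannitol difference and 88.4% among the 708 uncalled genes with the fold threshold, so it was not particular to the DEGs. Of the 56 downregulated DEGs, 33 were lower at 8 mg/L B9 (58.9%), with a median difference of -0.05. This was no excess over all tested genes with a negative mannitol difference, of which 60.1% were lower, while the share was 42.3% among the 532 uncalled genes. None of these genes was itself a DEG between the B9 doses by edgeR's test, which called 2 genes in all (0.0103% of tested genes), and 17 of the 178 passed the fold threshold at an unadjusted p under 0.05, against 3.81% of all tested genes.

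LOC116195644, the upregulated gene with the most reads, was also higher in both plants of the higher B9 dose. It had 1077 and 791 CPM at 8 mg/L B9, against 175.1 and 103.3 CPM at 6 mg/L B9 (log2 fold change 2.75, adjusted p = 0.0896). At 8 mg/L paclobutrazol LOC116195644 had 3415 and 2201 CPM, the first close to the lower 15 g/L mannitol plant at 3491 CPM. There it was also upregulated against CK (log2 fold change 2.11, adjusted p = 0.00222 by edgeR's test). LOC116189972 had the same order under both chemicals, with 85.8 and 68.4 CPM at 8 mg/L B9, against 154 and 120.5 CPM at 6 mg/L B9 (log2 fold change -0.83, adjusted p = 0.439).

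The mannitol dose difference was tested against the B9 dose difference as an interaction. None of the 178 DEGs passed this test with edgeR, with 0.0558 as the lowest adjusted p, in LOC116206393. At an unadjusted p under 0.05 with the fold threshold, 87 of the 178 passed, beside 4.72% of all tested genes, and DESeq2 on the 12 libraries called 50 of them. The mannitol difference that chose the DEGs is part of this contrast, so their count reads high by construction, and 91 of the 708 higher and 293 of the 532 lower uncalled genes passed as well. LOC116206393 had 43.7 and 37.6 CPM at 8 mg/L B9, against 23.9 and 18.3 CPM at 6 mg/L B9, the opposite order to that between the mannitol doses.

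Seen by library, the upregulated DEGs were as a set higher at the higher dose of mannitol, which chose them, and of B9. Relative to the CK mean, their median log2 CPM was 0.24 and 0.51 in the 15 g/L plants and -0.98 and -0.92 in the 2.5 g/L plants. It was 0.04 and -0.17 at 8 mg/L B9 and -0.41 and -0.55 at 6 mg/L B9. The downregulated DEGs were at -0.63 and -0.81 in the 15 g/L plants and at 0.66 and 0.71 in the 2.5 g/L plants, and their medians in the B9 plants lay between -0.10 and 0.12. Single downregulated DEGs went both ways under B9, with quartiles from -0.86 to 0.78. The upregulated set was at 0.32 and -0.03 at 8 mg/L paclobutrazol and at -0.76 and -0.65 at 6 mg/L, a dose that took no part in the fit, and the downregulated set was at 0.10 and 0.00 at 8 mg/L and at 0.64 and 0.31 at 6 mg/L.

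**Figure D4:**
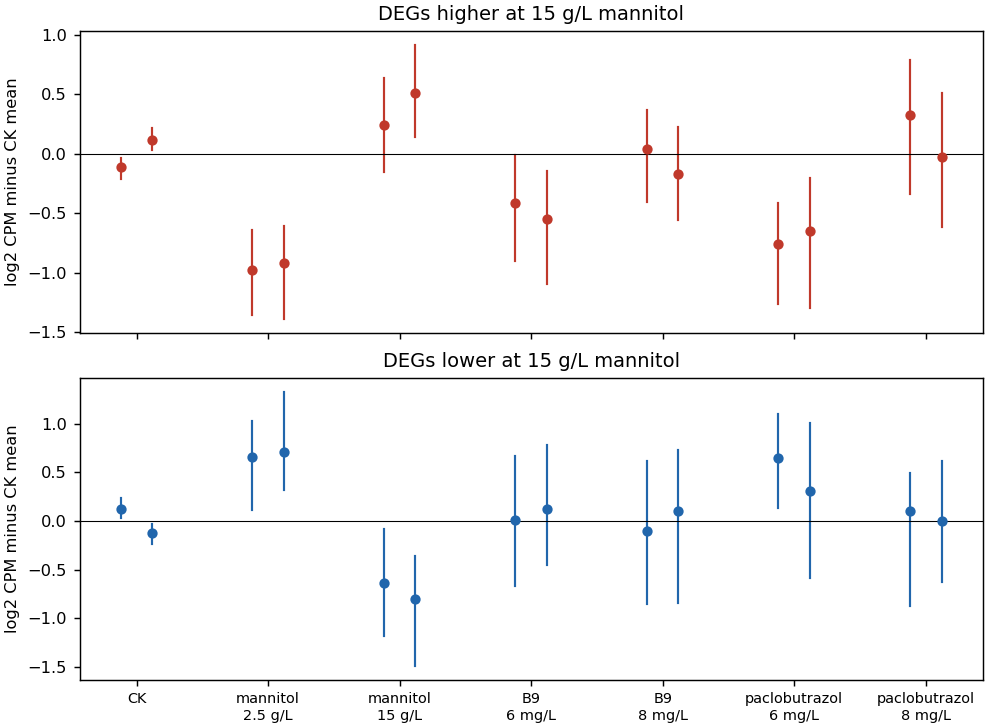
Median log2 CPM minus the CK mean (y axis, points) with the range from the 25th to the 75th percentile (lines) for the 122 upregulated DEGs (top) and the 56 downregulated DEGs (bottom) in each of the 14 plants (x axis). The order of the 2 mannitol doses is set by the choice of the genes, which did not use CK. The medians of the doses lie on opposite sides of CK in both panels, and the upregulated set is lower at 6 than at 8 mg/L B9.

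Gene length moved with the direction of change. The annotated span had a median of 2168 bases in the upregulated DEGs and 3611.5 bases in the downregulated DEGs, against 3108 bases over all tested genes. Over tested genes, Spearman's rho between span and the dose difference was -0.10, as a description over genes, which are not independent replicates. For single plants, rho was taken between span and log2 CPM relative to the mean of the 12 libraries. It was 0.09 and 0.25 at 15 g/L and 0.24 and 0.30 at 2.5 g/L, so the plants of the doses overlapped. With the trend on span removed from every library, 148 genes were DEGs, 90 of them upregulated, and 132 of the 178 were called again.

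A few DEGs were neighbours among the tested genes, in the gene order of the RefSeq annotation (assembly ASM765513v2). DEGs were 0.917% of tested genes, and whether neighbours were more frequent than this share gives was not tested. Of 19185 adjacent pairs of tested genes, 4 held 2 DEGs, with the same direction in 3, and the annotated spans of these pairs did not overlap. LOC116196808 and LOC116194823 were both upregulated, with log2 fold changes of 1.57 and 1.07, and no other annotated gene lies between them. LOC116203447 and LOC116206428 were also both upregulated (1.37 and 1.25), with 3 other annotated genes between them. LOC116196737 and LOC116197714 were both downregulated (-1.04 and -1.09), with 1 other annotated gene between them. LOC116206310 and LOC116206320 went in opposite directions, at -1.48 and 1.12.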

How the data were processed

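Leaf RNA of 14 plants was sequenced. The authors checked reads with FastQC, aligned them to the published pomegranate reference genome with HISAT2 and dropped those with several mapped locations. The deposited values are raw gene counts from featureCounts. Program versions, strand setting and the name of the genome build are not given in the sources used here, so overlapping and antisense genes are uncertain. Of 27893 symbols, 27509 matched the RefSeq table (assembly ASM765513v2), which was used for biotype, span and gene order and holds no product names. Planned gene lists could therefore not be applied, and no sequences are printed.

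Counts were tested in R 4.3.3 with edgeR 4.0.16 (filterByExpr with a minimum count of 10, TMM, 6 condition means, quasi-likelihood test), with 6 residual degrees of freedom and a biological coefficient of variation of 25.8%. DESeq2 was the authors' own tool. Log2 CPM used a prior count of 2.

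Genes were named by rule. These were the 10 DEGs with the smallest adjusted p and the 3 with the largest fold change in each direction, and the 2 with the smallest adjusted p for each position of CK. The members, lists and rules were chosen with earlier results of these data known. Alternatives were DESeq2 1.42.0, other sets of libraries, scalings, filters and thresholds, a replicate block, removal of the length trend and each replicate left out. The methods were run on simulated data with the same spread in every condition. Such data cannot show how the calls depend on which libraries estimate the spread.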

Additional observations from a re-analysis of the deposited data

Results flagged for a closer look

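The mannitol dose difference and the B9 dose difference differed by the interaction test in 2 genes, neither of which was a DEG between the mannitol doses. LOC116187053 (adjusted p = 0.00107, edgeR with Benjamini-Hochberg adjustment) had 319 and 254 counts at 15 g/L mannitol, against 270 and 259 counts at 2.5 g/L. At 8 mg/L B9 it had 0 and 1 counts, against 398 and 750 counts at 6 mg/L B9, at least 230-fold lower when set against a floor of 3 counts per library, and it also had 0 counts in both 6 mg/L paclobutrazol plants. LOC116192970 (adjusted p = 0.00393) had 25.6 and 22.9 CPM at 15 g/L mannitol, against 20.4 and 13.9 CPM at 2.5 g/L. It had 0.739 and 0.91 CPM at 8 mg/L B9, against 31.5 and 18.9 CPM at 6 mg/L B9. Both interactions rest on the B9 plants, since the mannitol plants differed by log2 fold changes of 0.19 (SE 0.29) in LOC116187053 and 0.50 (SE 0.27) in LOC116192970.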

How the results depend on the processing

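The named genes gave 622 values over the alternatives, of which 436 stayed past the thresholds and 186 fell short. Their directions carry no information here, since the plants of the doses do not overlap in any DEG. The causes of the changes in counts were not tested. DESeq2 on the 12 libraries called 841 DEGs of the dose comparison (484 higher, 357 lower), 731 of 15 g/L against CK (381 higher, 350 lower), 1241 of 2.5 g/L against CK (571 higher, 670 lower) and 214 of the difference from the B9 doses, with CK between the mannitol doses in 63.4%. On the libraries compared alone, DESeq2 called 852 (555 higher, 297 lower), 814 (376 higher, 438 lower), 1113 (660 lower) and 209, with CK between in 63.5%, while edgeR called 0 DEGs of the dose comparison (1368 unadjusted) and 1 of 2.5 g/L against CK (0 higher, 1 lower). EdgeR on 14 libraries called 0 of the dose comparison (1227 unadjusted), 5 of 15 g/L against CK (2 higher, 3 lower), 11 of 2.5 g/L against CK (7 higher, 4 lower) and 1 of the difference from B9. On the CK and mannitol libraries alone, a fit chosen after seeing the data, it called 0 of the dose comparison (1464 unadjusted), 79 of 15 g/L against CK (41 higher, 38 lower) and 201 higher at 2.5 g/L than CK. Scaling by library size alone gave 88 lower DEGs of the dose comparison, 372 of 15 g/L against CK (264 lower) and 4 of the difference from B9. The adjusted p alone gave 382 (262 higher, 120 lower), 401 (257 and 144) and 1078 (595 and 483). A test against a fold of 1.2 gave 24 (17 higher, 7 lower) of the dose comparison and 386 of 2.5 g/L against CK (169 lower).

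Leaving out 1 library in turn gave 0 to 183 DEGs of the dose comparison (higher 0 to 134, lower 0 to 50), 0 to 270 of 15 g/L against CK (higher 0 to 160, lower 0 to 110), 11 to 591 of 2.5 g/L against CK (higher 8 to 297, lower 3 to 294) and 1 to 20 of the difference from B9. The share of DEGs with CK beyond 2.5 g/L ranged over 0 to 11.4%, between the doses over 0 to 87.2% and beyond 15 g/L over 5.37 to 100%, the extremes without replicate 2 of 2.5 g/L resting on 2 DEGs. Where a dose is left with 1 plant, that plant is assumed to vary like the other groups. Replicate numbers are not stated to pair plants, and same-numbered plants of the mannitol doses deviated together with a correlation of 0.25, against -0.29 to 0.39 between conditions. With a replicate block, 160 genes were DEGs of the dose comparison, 126 of them among the 178, and CK lay between the doses in 64.4% and beyond 15 g/L in 28.7%.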
